A study of Homo sapiens with 95 samples.

Results

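The genes described here are 34 genes of cholesterol and fatty acid synthesis, named by symbol: 7 of the mevalonate steps, 12 of the squalene and sterol steps, 6 regulators and carriers of sterols, and 9 of fatty acid synthesis. All 34 were among the 27978 gene symbols listed in the data, and all 34 had a mean count of at least 1, as 14407 symbols did.

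Expression was profiled by sparse full length (SFL) sequencing, a multiplexed method that depletes ribosomal RNA, in AALE cells, an immortalized human bronchial epithelial line. There were 95 samples in 32 combinations of 8 genotypic perturbations and 4 treatments, with 3 samples in each of 31 combinations and 2 for FGFR1 with CSC. The study compared CSC with its vehicle within the NRF2 line and its control, and perturbed lines with their control line within a treatment. Comparisons of each exposure with its vehicle over all lines, and of lines over all treatments, were made here. Confluent cells were given the vehicle DMSO or an exposure: NNK, a nitrosamine derived from nicotine, at 490 μM, a condensate of cigarette smoke (CSC) at 24 μg/ml, or the polycyclic hydrocarbon benzo[a]pyrene (BaP) at 173 μM. The doses differed, so the exposures are set side by side without comparison. FAT1 and CDKN2A were CRISPR knockouts, whose control line, GFP, received the Cas9-EGFP plasmid with no guide RNA. NRF2 (gene NFE2L2), FGFR1, NRG1 and PIK3CA were overexpressed, and the control line HCRED carried the empty vector with its reporter. Whether a line was 1 clone is not given in the sources used here, nor is more of the samples' origin than that they were biological replicates, so p-values measure the spread between these samples, which may be technical.

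Cells build cholesterol from acetyl-CoA through mevalonate, isoprenoids, squalene and a series of sterols, and they build fatty acids from the same precursor by carboxylation, chain assembly, elongation and desaturation. The transcription factors encoded by SREBF2 and SREBF1 drive these genes, SREBF2 mainly the sterol steps and SREBF1 mainly the fatty acid steps. SCAP escorts both factors out of the endoplasmic reticulum when sterols are scarce, and INSIG1 retains them there when sterols are plentiful.

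Counted reads ranged from 287446 to 2116383 per sample (median 934235), and 9 samples were under 500000, of which 5 received BaP, 3 NNK, 1 CSC and 0 DMSO. The targeted genes moved as the labels say: with DMSO, FAT1 fell by 1.80 and CDKN2A fell by 1.06 on the log2 scale in their knockout lines, and the overexpressed genes were higher by 2.65 (PIK3CA) to 8.47 (NRG1). NRG1 was at 4757 to 6707 CPM in its own line, at 3.39 to 41.6 CPM in 75 samples of the other lines and at 67.8 to 370 CPM in the remaining 8. Those 8 samples were the 3 of NRF2 with CSC, 2 of FGFR1 with DMSO, and 1 each of FGFR1 with BaP, CDKN2A with DMSO and FAT1 with CSC, and counts without them are given beside the results. The source of these reads was not tested. Basal airway markers were present (6 of 6 genes, summed level 3614 to 11080 CPM), while the summed fibroblast markers lay between 8.06 and 71.4 CPM, with medians of 16.8 with DMSO, 34.3 with CSC, 28 with BaP and 32.4 with NNK. Blood markers summed to at most 37.6 CPM with CD3E and HBB at 0, and endothelial, hepatocyte and adipocyte, and ciliated and secretory airway markers to at most 7.08 CPM. The fibroblast sum was mostly COL1A1, with a mean count of 24.2, while the other fibroblast genes had mean counts from 0.03 to 1.29. The blood sum was mostly CD68, with a mean count of 14.7, and PTPRC and LYZ had at most 0.07. Any part of fibroblast RNA in the results was not tested.

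A second property moved with every exposure. Over all genes, the log2 fold change rose with the GC content of the transcript, by 0.29 for CSC, 0.28 for BaP and 0.29 for NNK per 10 percentage points, with Pearson's r of 0.65, 0.68 and 0.74 across genes, which are not independent. The 34 genes spanned GC contents from 34.4% to 65.5% (median 49.5%), and across them r was 0.84, 0.81 and 0.70. Each exposure is therefore given as measured and again after a loess correction for GC content and exon length within each sample, called the corrected value below.

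Per kilobase of exon, the genes differed widely in abundance in the 24 DMSO samples. SCD, which makes monounsaturated fatty acids, was the highest at 486 ± 81.3 CPM per kilobase (SD, n = 24). It was followed by FDFT1, the squalene synthase, at 204 ± 41.5 CPM per kilobase, and by ACLY, which supplies acetyl-CoA from citrate, at 149 ± 44.2 CPM per kilobase. The SDs of FDFT1 and ACLY overlapped. Next came MSMO1, a C4-demethylase of sterols, at 129 ± 46.6 CPM per kilobase, and FASN, the fatty acid synthase, at 117 ± 29.0 CPM per kilobase. Their SDs overlapped that of ACLY, and the genes were not compared sample by sample. The lowest were TM7SF2 at 13.2 ± 4.11, PMVK at 13.0 ± 3.40 and HSD17B7 at 7.09 ± 1.74 CPM per kilobase. These SDs take in the differences between the 8 lines. On GRCh37, HMGCS1 lies at chr5:43287572-43313614 (minus strand), MVD at chr16:88718343-88729569 (minus), FASN at chr17:80036214-80056170 (minus) and SCD at chr10:102106990-102124583 (plus). HSD17B7 has near-identical pseudogene copies, and its counts are uncertain.

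With NNK, transcripts of nearly the whole pathway were higher than with DMSO. Of the 34 genes, 29 rose and 2 fell (adjusted p under 0.05, limma-voom with genotype as a term), and their median log2 fold change was 0.42, against 0.00 over all 14387 genes tested. Over all genes 51.7% were called, 25.9% higher and 25.8% lower. After the GC correction 27 of the 34 were called higher and 1 lower at a median of 0.43, against 17.1% of all genes called (11.5% higher and 5.57% lower) and a median of 0.04. The called genes were the same with the same sign in both for 24, and 2, SREBF1 and STARD4, were called with opposite signs. Over all genes the calls were 3729 higher and 3709 lower as measured, and 1554 higher and 751 lower corrected. The heatmap of fold changes shows this column beside the other comparisons, which share DMSO samples.

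**Figure D1:**
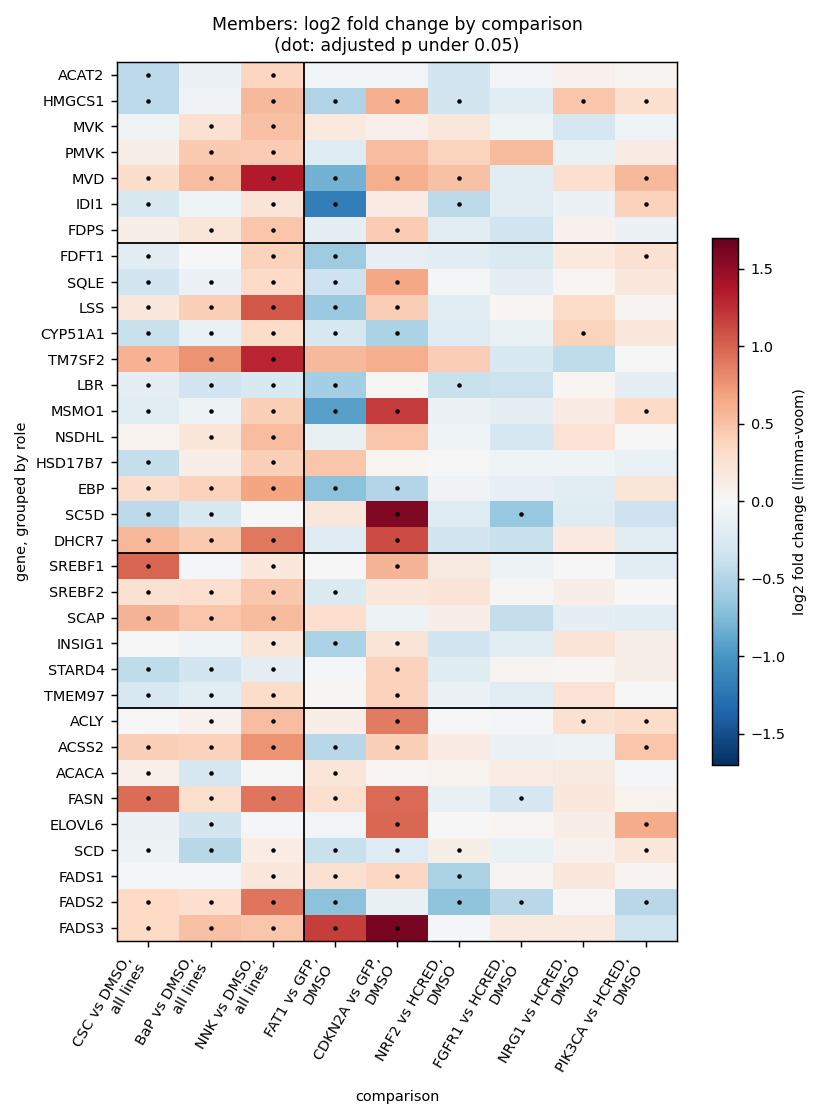
Log2 fold change of the 34 genes (rows, by role) in 9 comparisons (columns: 3 exposures against DMSO over all lines, and 6 lines against their control with DMSO), as colour from blue (lower) to red (higher), with a dot where the adjusted p was under 0.05. With NNK 29 of 34 genes were higher, with CSC 13 were higher and 13 lower, and the FAT1 and CDKN2A lines carried 19 and 21 calls.

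Among the mevalonate steps, 7 of 7 genes rose with NNK. MVD, which decarboxylates mevalonate diphosphate, was at 24.9, 70.5 and 97.2 normalised CPM (lowest, median and highest of the 24 DMSO samples, in CPM after TMM scaling) and at 82.8, 184 and 249 CPM with NNK. Its log2 fold change was 1.35 (SE 0.058, adjusted p = 6.96e-38), a 2.55-fold rise, and 0.86 corrected. The ranges overlapped at their ends over all lines, but within each of the 8 lines every NNK sample was above every DMSO sample. The share of all genes separated in this way was not determined, for NNK or for the other exposures below. HMGCS1, which makes the precursor of mevalonate, was at 188, 292 and 462 CPM with DMSO and at 249, 423 and 816 CPM with NNK. Its log2 fold change was 0.55 (SE 0.039, adjusted p = 2.71e-23) and 0.83 corrected, and all NNK samples were above all DMSO samples in 8 of 8 lines. The smallest changes of the group as measured were those of IDI1, which isomerises isopentenyl diphosphate, at 0.21 (corrected 0.52), and of ACAT2, which condenses acetyl-CoA, at 0.37 (corrected 0.50). FDPS, the farnesyl diphosphate synthase, rose by 0.48 (corrected 0.33). MVK and PMVK, the kinases of the route, rose by 0.50 and 0.43 as measured. Their corrected values of 0.16 (adjusted p = 0.118) and 0.19 (adjusted p = 0.287) were the smallest of the group and were not called. PMVK was not called without the samples numbered 2 (adjusted p = 0.0571).

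Of the 12 squalene and sterol genes, 10 rose and 1 fell with NNK. TM7SF2, a sterol C14-reductase, was at 7.78, 19.9 and 40.5 CPM with DMSO and at 28.1, 50.7 and 75.0 CPM with NNK, a log2 fold change of 1.30 (SE 0.088, adjusted p = 4.45e-24) and 0.91 corrected. LSS, which closes squalene epoxide to lanosterol, went from 98.3, 134 and 250 CPM to 175, 275 and 538 CPM, a log2 fold change of 1.05 (SE 0.046, adjusted p = 1.09e-37) and 0.76 corrected. DHCR7, which reduces 7-dehydrocholesterol to cholesterol, went from 84.5, 121 and 277 CPM to 135, 255 and 461 CPM, a log2 fold change of 0.90 (SE 0.043, adjusted p = 1.49e-34) and 0.63 corrected. EBP, the sterol isomerase, rose by 0.68 and 0.58 corrected. All 4 were higher in every NNK sample than in every DMSO sample of the line in 8 of 8 lines, as was FDFT1, the first enzyme committed to sterols, at 0.39 and 0.49 corrected. As measured, NSDHL (0.52), MSMO1 (0.41), SQLE (0.33) and CYP51A1 (0.31) rose less than EBP. MSMO1 and CYP51A1 had corrected values of 0.71 and 0.55, that of MSMO1 above those of DHCR7 and EBP. HSD17B7 rose by 0.41 and was not called without the samples numbered 1 (adjusted p = 0.0515) or 3 (adjusted p = 0.0689). LBR, the other C14-reductase and a lamin receptor, was the exception: it fell by 0.27 on the log2 scale, and its corrected value of 0.04 was not called (adjusted p = 0.614). SC5D, the sterol desaturase, was at 0.00 as measured (adjusted p = 0.95) and was called at 0.31 corrected.

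Of the 6 regulators and carriers, 5 rose and 1 fell with NNK. SREBF2 was at 175, 205 and 250 CPM with DMSO and at 230, 292 and 329 CPM with NNK, a log2 fold change of 0.46 (SE 0.035, adjusted p = 4.26e-21) and 0.17 corrected (adjusted p = 8.29e-05). All NNK samples lay above all DMSO samples in 8 of 8 lines. SCAP rose by 0.54, with a corrected value of 0.13 that was not called (adjusted p = 0.0647). INSIG1 rose by 0.21 and TMEM97, a sterol-binding membrane protein, by 0.31, with corrected values of 0.36 and 0.46. SREBF1 was called higher at 0.17 as measured and lower at -0.28 corrected. STARD4, a sterol carrier, was called lower at -0.15 as measured and higher at 0.22 corrected, so the direction of these last genes differed with the correction.

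Of the 9 fatty acid genes, 7 rose and 0 fell with NNK (limma-voom; 7 had an unadjusted p under 0.05). FASN was at 674, 958 and 1642 CPM with DMSO and at 1259, 1986 and 2456 CPM with NNK. Its log2 fold change was 0.91 (SE 0.036, adjusted p = 1.87e-40) and 0.41 corrected. FADS2, the delta-6 desaturase of polyunsaturated chains, went from 141, 233 and 306 CPM to 273, 421 and 762 CPM, a log2 fold change of 0.91 (SE 0.038, adjusted p = 1.01e-38) and 0.59 corrected. ACSS2, which activates acetate, rose by 0.76 and ACLY by 0.52, with corrected values of 0.63 and 0.43. These 4 were higher in every NNK sample than in every DMSO sample in 8 of 8 lines. SCD, the most abundant, moved little: it was at 1773, 2600 and 3119 CPM with DMSO and at 1870, 2810 and 3378 CPM with NNK, a log2 fold change of 0.12 (SE 0.016, adjusted p = 1.8e-10) and 0.20 corrected. FADS1, the delta-5 desaturase, rose by 0.18, and FADS3 by 0.47 with a corrected value of 0.08 that was not called (adjusted p = 0.325). ACACA, which carboxylates acetyl-CoA, was at 0.01 (adjusted p = 0.762) and ELOVL6, a fatty acid elongase, at -0.03 (adjusted p = 0.645). Corrected, ELOVL6 was called higher at 0.17 (adjusted p = 0.0167) and ACACA, at 0.00, was not called. FADS1 (chr11:61567099-61596790, minus strand, GRCh37) lies within the span of FADS2 (chr11:61560452-61634826, plus strand). Reads in exon sequence that both genes cover, if any, cannot be told apart if counting ignored strand.

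**Figure D2:**
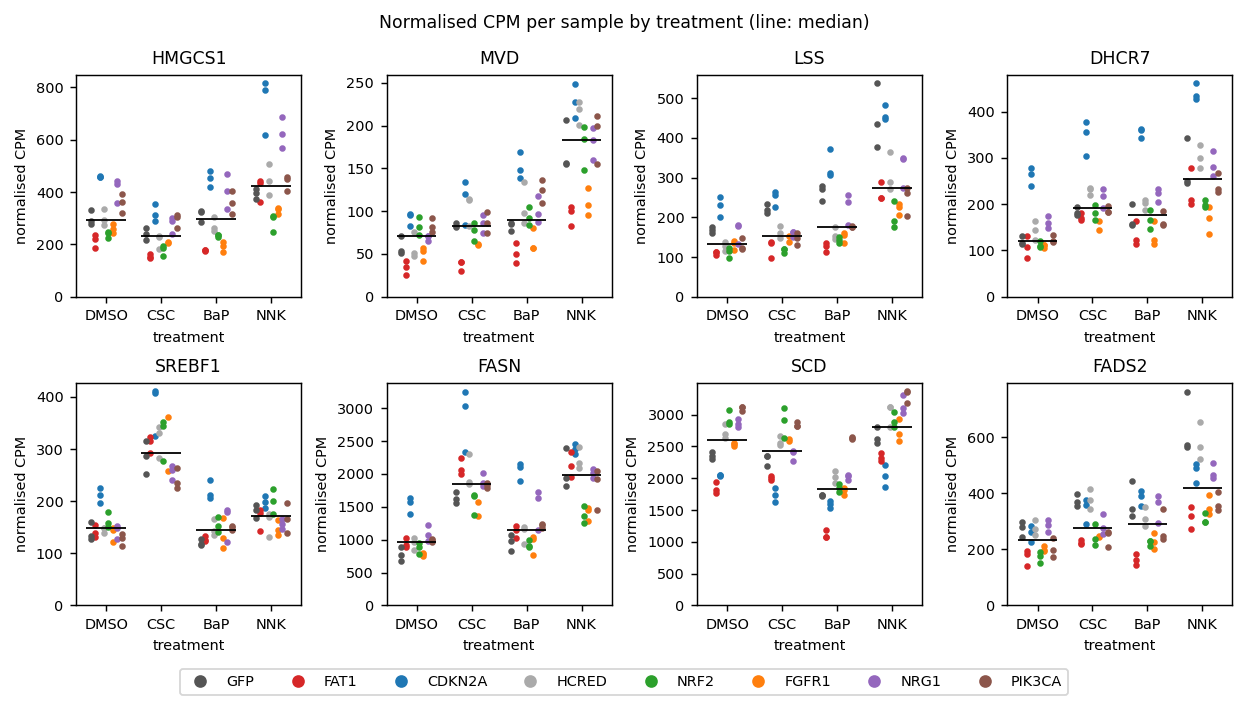
Normalised CPM of 8 genes in each sample (points, coloured by line) for DMSO, CSC, BaP and NNK, with the median as a black line. MVD, LSS and DHCR7 were highest with NNK, SREBF1 was highest with CSC at 226 to 411 CPM, and SCD was lowest with BaP.

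Promoter sequences of the sterol genes with the largest rises and a motif match are given below as a description. These sequences were chosen for a match, so holding one is not a result. They are from RefSeq (GRCh38.p14), 250 bases before the start, 5′ to 3′ on the strand of the gene, with CCAAT boxes (CCAAT or its complement ATTGG) in capitals. MVD lies at chr16:88663092-88663341 (minus strand), TM7SF2 at chr11:65111622-65111871 (plus), LSS at chr21:46228775-46229024 (minus) and DHCR7 at chr11:71448394-71448643 (minus). DHCR7 has a second listed start, whose window held none of the motifs searched. SREBF2, at chr22:41832855-41833104 (plus), was added after its sequence was seen because it held the only strict sterol regulatory element, TCACCCCAC, also in capitals.
MVD: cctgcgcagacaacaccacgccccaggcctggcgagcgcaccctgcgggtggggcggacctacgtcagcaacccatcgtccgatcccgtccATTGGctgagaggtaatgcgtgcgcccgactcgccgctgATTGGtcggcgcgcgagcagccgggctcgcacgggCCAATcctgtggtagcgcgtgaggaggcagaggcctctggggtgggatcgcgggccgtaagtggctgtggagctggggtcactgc
TM7SF2: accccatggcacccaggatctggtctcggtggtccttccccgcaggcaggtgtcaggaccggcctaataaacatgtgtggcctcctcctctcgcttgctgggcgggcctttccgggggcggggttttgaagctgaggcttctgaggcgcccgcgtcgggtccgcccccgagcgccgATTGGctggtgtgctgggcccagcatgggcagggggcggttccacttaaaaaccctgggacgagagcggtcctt
LSS: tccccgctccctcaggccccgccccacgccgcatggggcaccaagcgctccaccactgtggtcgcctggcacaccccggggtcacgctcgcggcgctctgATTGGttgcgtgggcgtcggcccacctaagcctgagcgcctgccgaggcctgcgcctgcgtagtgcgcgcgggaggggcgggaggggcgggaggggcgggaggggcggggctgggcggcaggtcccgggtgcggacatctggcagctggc
DHCR7: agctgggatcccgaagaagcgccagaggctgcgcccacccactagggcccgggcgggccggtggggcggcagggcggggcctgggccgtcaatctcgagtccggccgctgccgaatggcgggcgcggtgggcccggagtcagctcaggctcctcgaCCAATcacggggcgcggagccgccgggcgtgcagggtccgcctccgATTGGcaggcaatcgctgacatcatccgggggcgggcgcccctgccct
SREBF2: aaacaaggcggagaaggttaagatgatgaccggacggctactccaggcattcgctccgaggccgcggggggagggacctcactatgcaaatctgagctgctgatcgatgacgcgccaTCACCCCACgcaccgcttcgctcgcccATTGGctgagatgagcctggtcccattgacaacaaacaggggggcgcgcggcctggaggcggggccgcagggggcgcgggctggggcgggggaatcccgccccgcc

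Over the 300 bases from 250 before to 50 after the start, both strands, 27 of 40 promoters of 30 matched genes (67.5%) held CCAAT, against 34.6% of all 35116 promoters in the table. The sterol regulatory element TCACCCCAC was in 1 of the 40 (2.5%) against 0.430% of all, and its looser form TCACNCCAC, which includes it, in the same 1 against 1.13%. The E-box CACGTG was in 5 of the 40 (12.5%), those of INSIG1, LSS, SC5D and SCAP, against 7.26%. A match is a description of these letters only. SQLE, ACAT2, FDFT1 and FASN had no entry in the table used.

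With CSC, FASN and SREBF1 rose in every line while ACAT2, HMGCS1 and CYP51A1 fell in every line. Of the 34 genes, 13 rose and 13 fell, with 55.6% of all genes called (27.2% higher and 28.4% lower), and the median log2 fold change was 0.00 against -0.01 over all 14497 genes. By role, 5 fatty acid genes rose and 1 fell, 4 sterol genes rose and 7 fell, 1 mevalonate gene rose and 3 fell, and 3 regulators rose and 2 fell. Corrected, 4 fatty acid genes were called higher and 1 lower, 4 sterol genes higher and 3 lower, 0 mevalonate genes higher and 4 lower, and 3 regulators higher and 0 lower (limma-voom). After the GC correction 11 were called higher and 8 lower (33.8% of all genes called, 21% higher and 12.8% lower), 12 with the sign they had as measured and 3 (MVD, MSMO1 and LBR) with the opposite sign. Over all genes the calls were 3943 higher and 4118 lower as measured, and 2854 higher and 1736 lower corrected.

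SREBF1 was at 114, 148 and 225 CPM with DMSO and at 226, 292 and 411 CPM with CSC, so the 23 CSC and 24 DMSO samples did not overlap. Its log2 fold change was 0.99 (SE 0.040, adjusted p = 1.26e-39) and 0.57 corrected. FASN, a target of SREBF1, went from 674, 958 and 1642 CPM to 1366, 1848 and 3251 CPM, a log2 fold change of 0.95 (SE 0.030, adjusted p = 2.19e-48) and 0.50 corrected. Both rose in all CSC samples of 8 of 8 lines, as did SCAP (0.58, corrected 0.20) and DHCR7 (0.56, corrected 0.29). ACSS2 rose by 0.40 (corrected 0.27), and EBP by 0.30 (corrected 0.18). TM7SF2 (0.59), FADS2 (0.34), FADS3 (0.34), SREBF2 (0.26) and LSS (0.18) were called higher as measured, and their corrected values, between -0.09 and 0.19, were not called. MVD was called higher at 0.30 as measured and lower at -0.24 corrected. ACACA was called higher at 0.08 and 0.11 corrected, and was not called without the samples numbered 2 (adjusted p = 0.147).

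Of the 13 genes that fell with CSC as measured, 10 were of the mevalonate or sterol steps. These steps hold 7 and 12 genes, most of those described here. Of the 8 genes called lower after the correction 7 were of these steps, but they were not all the same genes. Those called lower both as measured and corrected were 2 mevalonate and 3 sterol genes. MVD, among the 7, had been called higher as measured. ACAT2 was at 109, 161 and 198 CPM with DMSO and at 67.3, 122 and 157 CPM with CSC, and fell by 0.45 on the log2 scale (SE 0.042, adjusted p = 1.34e-16), with a corrected value of -0.32. HMGCS1 went from 188, 292 and 462 CPM to 148, 231 and 354 CPM, a log2 fold change of -0.44 (SE 0.037, adjusted p = 6.13e-19) and -0.13 corrected (adjusted p = 0.00459). CYP51A1, the lanosterol demethylase, went from 219, 281 and 365 CPM to 142, 227 and 295 CPM, a log2 fold change of -0.38 (SE 0.034, adjusted p = 1.17e-17) and -0.11 corrected. All 3 were lower in every CSC sample than in every DMSO sample of the line in 8 of 8 lines. SQLE, the squalene epoxidase, fell by 0.32 on the log2 scale (corrected -0.21). SC5D (-0.44), STARD4 (-0.43), TMEM97 (-0.27) and IDI1 (-0.26) were called lower as measured, and their corrected values of -0.10, -0.01, -0.12 and 0.08 were not called. HSD17B7 was called lower at -0.41 (adjusted p = 0.0133) and was not called without the samples numbered 1 (adjusted p = 0.0604) or 2 (adjusted p = 0.517). FDFT1 (-0.18), MSMO1 (-0.18) and LBR (-0.15) were also called lower, MSMO1 and LBR with corrected values of 0.15 and 0.19 that were called higher, and LBR was not called without the samples numbered 1 or 2 (adjusted p = 0.0843 and 0.0638). SCD was at 1634, 2427 and 3098 CPM, a log2 fold change of -0.08 (SE 0.017, adjusted p = 2.69e-05) that was 0.01 corrected and then not called (adjusted p = 0.569).

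With BaP, SCD fell in every line and the reductases TM7SF2 and DHCR7 rose. Of the 34 genes, 16 rose and 10 fell, with 51.4% of all genes called (26.4% higher and 25.1% lower), and the median log2 fold change was 0.03 against 0.01 over all 14392 genes. After the GC correction 11 were called higher and 4 lower (26% of all genes called, 17.3% higher and 8.61% lower), 8 with the same sign as measured and 3 (CYP51A1, MSMO1 and FASN) with the opposite sign. By role, 8 sterol genes were called higher and 0 lower after the correction, 5 of them with the same sign as measured and 2 with the opposite sign. The mevalonate genes had 2 higher and 0 lower, the regulators 0 and 1, and the fatty acid genes 1 and 3 (limma-voom). Over all genes the calls were 3794 higher and 3608 lower as measured, and 2340 higher and 1162 lower corrected.

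SCD was at 1773, 2600 and 3119 CPM with DMSO and at 1081, 1830 and 2648 CPM with BaP, a log2 fold change of -0.47 (SE 0.020, adjusted p = 5.35e-37) and -0.37 corrected (adjusted p = 7.86e-32). Every BaP sample was below every DMSO sample of its line in 8 of 8 lines. ACACA also fell, from 436, 488 and 612 CPM to 335, 404 and 482 CPM, a log2 fold change of -0.28 (SE 0.029, adjusted p = 1.31e-14) and -0.18 corrected. FASN was called higher at 0.27 as measured and lower at -0.12 corrected, and FADS2 and FADS3, at 0.29 and 0.49 as measured, were not called corrected. ELOVL6 was called lower at -0.32 as measured and was not called corrected (-0.09).

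Among the sterol genes, TM7SF2 rose most with BaP, at 16.8, 31.6 and 64.3 CPM, a log2 fold change of 0.77 (SE 0.092, adjusted p = 1.72e-11) and 0.38 corrected. DHCR7 (0.45, corrected 0.18), LSS (0.40, corrected 0.15), EBP (0.39, corrected 0.28) and ACSS2 of the acetate route (0.40, corrected 0.27) were called higher in both. MVD (0.53), SCAP (0.48) and PMVK (0.44) were called as measured and not corrected, at 0.03, 0.10 and 0.19. LBR (-0.33) and STARD4 (-0.33) were called lower as measured, and their corrected values of -0.05 and 0.01 were not called. HMGCS1 was at 172, 295 and 479 CPM with BaP, a log2 fold change of -0.06 that was not called (SE 0.037, adjusted p = 0.198) and that was called at 0.22 corrected. SREBF1 was not called at -0.02 as measured (adjusted p = 0.672) and was called at -0.44 corrected. FDPS (0.20), MVK (0.26), SREBF2 (0.29), SQLE (-0.11) and SC5D (-0.25) were called as measured, and their corrected values of 0.05, -0.07, 0.04, -0.01 and 0.06 were not called. CYP51A1 was called lower at -0.11 as measured and higher at 0.12 corrected. MSMO1 (-0.08), MVK, NSDHL (0.20), TMEM97 (-0.18) and ACLY (0.07) were not called when the samples of at least 1 replicate number were left out. The plot of fold change against GC content shows which genes kept a distance from zero.

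**Figure D3:**
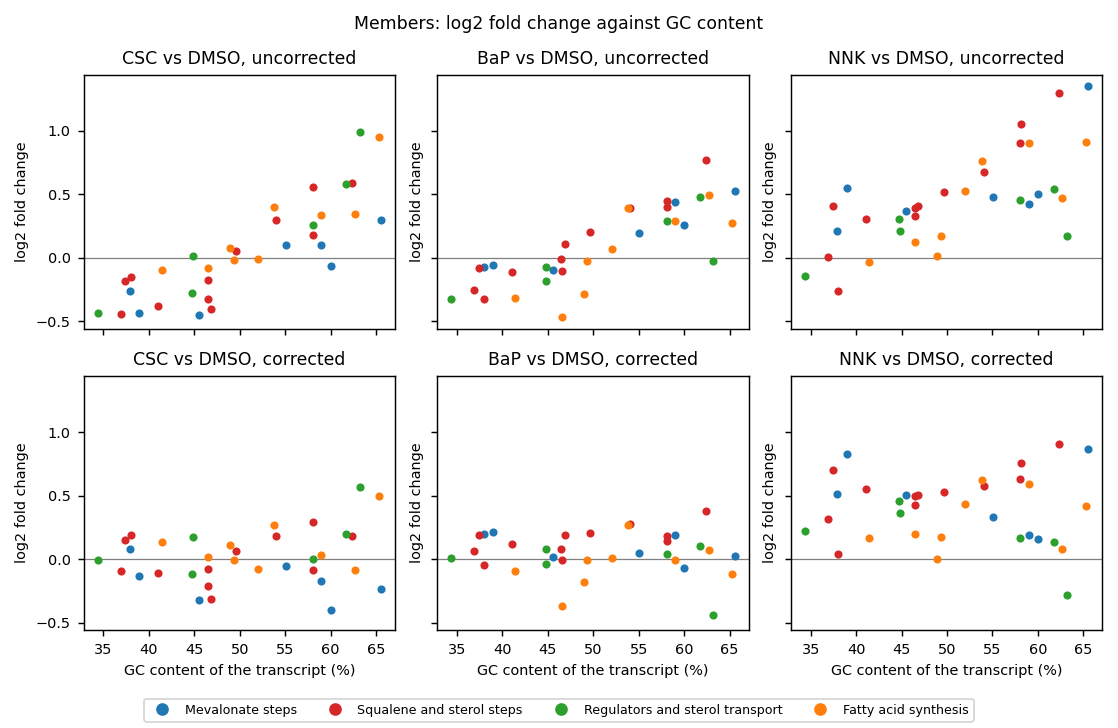
Log2 fold change (y axis) of the 34 genes against the GC content of their transcripts in percent (x axis), for CSC, BaP and NNK as measured (top) and after the GC content and exon length correction (bottom), coloured by role. As measured the fold changes rose with GC content (r of 0.84, 0.81 and 0.70), and corrected they did not (0.19, -0.05 and -0.03), while most genes stayed above zero with NNK.

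In samples of at least 500000 reads, and with the 8 samples with NRG1 above 50 CPM left out, 26 of the 34 genes were called with CSC, 25 with BaP and 31 with NNK in each case.

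The lines were compared with their own control line with DMSO, 3 samples against 3, and again over all treatments with treatment as a term, which includes the same DMSO samples. Lines with the same control share its samples, so the lines are described side by side. With DMSO, 19 of the 34 genes did not overlap their control in FAT1, 25 in CDKN2A and 12 in NRF2 cells. In FGFR1, NRG1 and PIK3CA cells 11, 8 and 13 did not. The calls were 19, 21, 7, 3, 3 and 10, so genes that were not called also lacked overlap. The share of all genes without overlap was not determined. Across all genes, the r of fold change with GC content was between -0.01 (PIK3CA) and 0.22 (FAT1) with DMSO. Over all treatments it was between -0.07 (PIK3CA) and 0.19 (FAT1). Across the 34 genes r was between -0.25 (PIK3CA) and 0.48 (NRF2) with DMSO, and between -0.55 (NRG1) and 0.24 (FAT1) over all treatments. Per 10 percentage points, the slope over all genes with DMSO was 0.19 in FAT1, 0.18 in CDKN2A and 0.13 in NRF2 cells. In the other lines it was between -0.01 and 0.02. For the lines the correction was fitted over all treatments only. The corrected median of the 34 genes was -0.16 in FAT1, 0.32 in CDKN2A and -0.17 in NRF2 cells. In FGFR1, NRG1 and PIK3CA cells it was -0.18, 0.04 and 0.02. The medians over all genes were between -0.01 and 0.04. Of the 6 basal airway markers, 4 were lower in FAT1, 4 in CDKN2A (with 2 higher), 2 in NRF2 (with 3 higher), 5 in FGFR1, 4 in NRG1 and 6 in PIK3CA cells with DMSO, and their part in the results was not tested.

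In the FAT1 knockout line most called genes of the pathway were lower than in GFP cells. With DMSO, 15 fell and 4 rose, against 26.3% of all genes called (12% higher and 14.3% lower), and the median log2 fold change was -0.18 against 0.01 over all genes. The falls took in 3 of 7 mevalonate genes, 7 of 12 sterol genes and 2 of 6 regulators, while fatty acid genes were split, 4 higher and 3 lower. IDI1 was at 141, 158 and 164 CPM in FAT1 cells and at 319, 357 and 347 CPM in GFP cells, a log2 fold change of -1.17 (SE 0.09, adjusted p = 4.27e-13). MSMO1 was at 97.2, 116 and 112 CPM against 195, 192 and 217 CPM, a log2 fold change of -0.93 (SE 0.11, adjusted p = 1.06e-08). MVD was at 41.9, 35 and 24.9 CPM against 51.5, 53.6 and 70.6 CPM, a log2 fold change of -0.80 (adjusted p = 0.00153). In each of these the groups did not overlap. HMGCS1 was at 188, 219 and 236 CPM against 277, 331 and 289 CPM, a log2 fold change of -0.51 (adjusted p = 3.86e-05). SCD was at 1773, 1810 and 1945 CPM against 2353, 2412 and 2300 CPM, a log2 fold change of -0.38 (adjusted p = 5.2e-10). FADS2 was at 195, 141 and 184 CPM against 245, 279 and 299 CPM, a log2 fold change of -0.69 (adjusted p = 1.42e-06). None of these 3 overlapped either. EBP (-0.69), LSS (-0.63), FDFT1 (-0.60), LBR (-0.57), INSIG1 (-0.54) and ACSS2 (-0.47) also fell.

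FADS3, a desaturase that acts on sphingoid bases, went the other way in FAT1 cells, at 92.7, 103 and 102 CPM against 41.8, 46.9 and 40.7 CPM in GFP cells, a log2 fold change of 1.17 (adjusted p = 9.16e-08). FASN (0.27), FADS1 (0.26) and ACACA (0.20) were called higher too, FASN with overlapping groups. SREBF2 was called lower at -0.25 (adjusted p = 0.0435) and lost its call in each of the 6 fits that left out 1 sample, with adjusted p from 0.0707 to 0.144. ACACA lost its call in 4 of the 6 (up to 0.148), CYP51A1 (-0.28) in 2 (up to 0.0704) and FADS1 in 1 (0.0862). SQLE (-0.35) kept its call in all 6. Over all treatments 6 genes were higher and 17 lower, against 48.9% of all genes (25% higher and 23.9% lower), and all 19 genes called with DMSO were called with the same sign. KRT14, a basal keratin, fell in this line with DMSO, at 35.8 to 56.8 CPM against 362 to 413 CPM.

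In the CDKN2A knockout line most called genes were higher. With DMSO, 18 rose and 3 fell, against 37.2% of all genes called (18.9% higher and 18.3% lower), and the median log2 fold change was 0.40 against 0.02 over all genes. FADS3 was at 131, 131 and 137 CPM against 41.8, 46.9 and 40.7 CPM, a log2 fold change of 1.61 (SE 0.15, adjusted p = 2.73e-15). SC5D was at 214, 204 and 253 CPM against 68.0, 68.9 and 83.7 CPM, a log2 fold change of 1.58 (SE 0.12, adjusted p = 9.84e-19). MSMO1 was at 473, 446 and 481 CPM against 195, 192 and 217 CPM, a log2 fold change of 1.19 (SE 0.08, adjusted p = 6.19e-22). In all 3 each knockout sample lay above each control sample. DHCR7 was at 240, 277 and 266 CPM against 131, 113 and 115 CPM, a log2 fold change of 1.11 (adjusted p = 1.73e-15). FASN was at 1395, 1642 and 1579 CPM against 674, 894 and 767 CPM, a log2 fold change of 0.97 (adjusted p = 1.72e-26). ACLY was at 1010, 1128 and 1156 CPM against 517, 620 and 629 CPM, a log2 fold change of 0.88 (adjusted p = 6.52e-23). None of these groups overlapped, nor did those of ELOVL6 (0.98), SQLE (0.65), MVD (0.62), HMGCS1 (0.61) and SREBF1 (0.58), which rose as well.

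The 3 genes that fell in CDKN2A cells were of different steps. CYP51A1 was at 240, 243 and 222 CPM against 355, 350 and 311 CPM, a log2 fold change of -0.53 (adjusted p = 7.41e-08). EBP was at 74.4, 52.4 and 61.8 CPM against 79.7, 92.9 and 91.3 CPM, a log2 fold change of -0.50 (adjusted p = 0.00368). SCD was at 2041, 2058 and 2043 CPM against 2353, 2412 and 2300 CPM, a log2 fold change of -0.21 (adjusted p = 2.2e-09), so it fell while FASN rose. Over all treatments 22 genes were higher and 5 lower, against 57.6% of all genes (29.4% higher and 28.3% lower), and all 21 genes called with DMSO were called with the same sign. Of the 21, FDPS, TMEM97 and INSIG1 lost their calls in 2, 2 and 4 of the 6 fits that left out 1 sample (adjusted p up to 0.0819, 0.102 and 0.118). FDPS (0.44), LSS (0.41), ACSS2 (0.40), STARD4 (0.39), TMEM97 (0.39), FADS1 (0.35) and INSIG1 (0.22) made up the rest of those that rose. Without CDKN2A sample 3, which carried NRG1 reads, 21 genes were called, INSIG1 no longer among them (adjusted p = 0.0534).

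**Figure D4:**
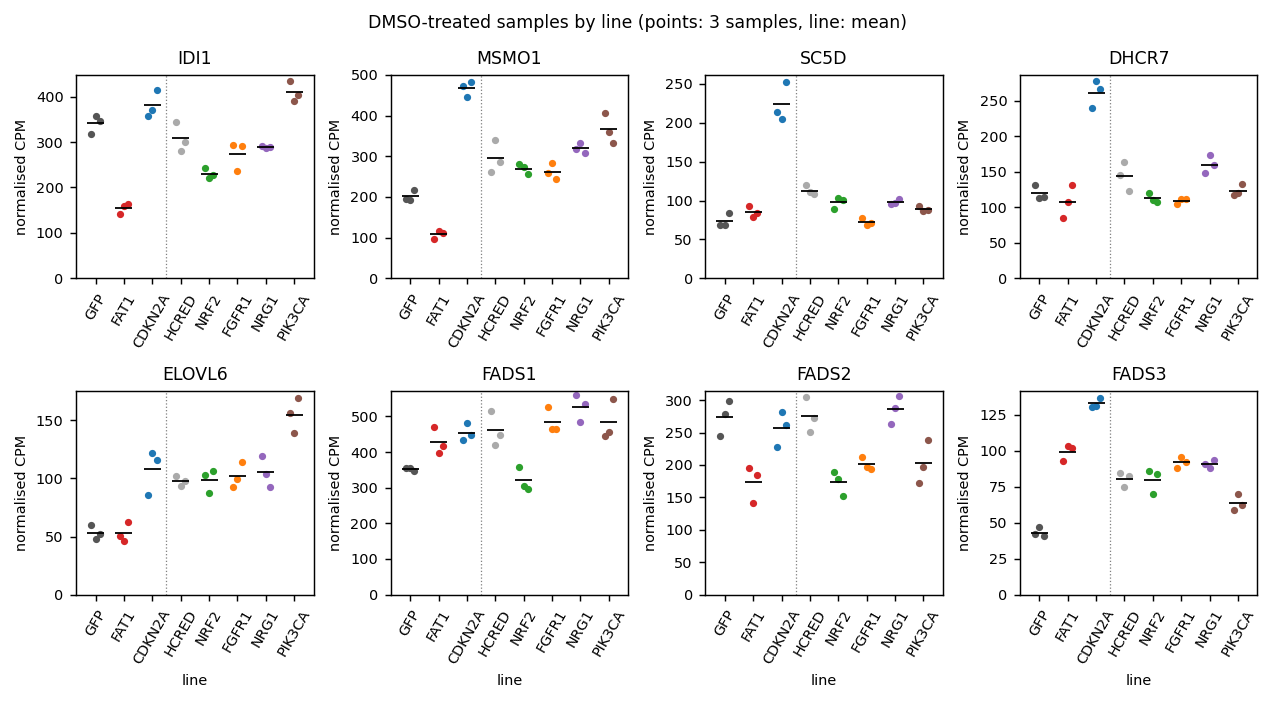
Normalised CPM of 8 genes in the DMSO samples of each line (3 points a line, mean as a line). SC5D, MSMO1 and DHCR7 were highest in CDKN2A cells, IDI1 and MSMO1 lowest in FAT1 cells, FADS3 was higher in both knockout lines than in GFP cells, and ELOVL6 was highest in PIK3CA cells.

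With NRF2 overexpressed, FADS1, FADS2 and IDI1 were lower than in HCRED cells. With DMSO, 2 genes rose and 5 fell, against 7.16% of all genes called (3.26% higher and 3.9% lower). FADS2 was at 190, 178 and 152 CPM against 305, 251 and 272 CPM, a log2 fold change of -0.69 (SE 0.10, adjusted p = 3.2e-07). FADS1 was at 359, 306 and 296 CPM against 515, 420 and 448 CPM, a log2 fold change of -0.54 (SE 0.08, adjusted p = 6.78e-07). IDI1 was at 243, 220 and 227 CPM against 345, 280 and 300 CPM, a log2 fold change of -0.44 (SE 0.09, adjusted p = 0.000483). The groups of these genes did not overlap, and their calls held in each of the 6 fits that left out 1 sample. HMGCS1 (-0.32, adjusted p = 0.0175), LBR (-0.38, adjusted p = 0.0247), MVD (0.50, adjusted p = 0.0492) and SCD (0.10, adjusted p = 0.0392) lost theirs in 3 or 4 of the 6, with adjusted p up to 0.0869, 0.163, 0.37 and 0.319. Over all treatments 17 genes were lower and 1, TM7SF2, higher, against 21.6% of all genes called (10.4% higher and 11.2% lower). Those lower included FASN (-0.36), DHCR7 (-0.37), ACAT2 (-0.46) and LSS (-0.35), while MVD, at -0.10, and SCD, at 0.04, were not called there. TM7SF2 went from 0.49 to 0.20 without the samples numbered 2 and was then not called (adjusted p = 0.379). Without the 3 NRF2 samples with CSC, which carried NRG1 reads, 16 were called.

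With FGFR1 overexpressed, 3 genes fell and 0 rose with DMSO, against 1.86% of all genes called, 1.09% higher and 0.774% lower (limma-voom; 0 were higher and 11 lower at an unadjusted p under 0.05, and 0 were higher by edgeR or DESeq2). SC5D was at 77, 68.8 and 71.2 CPM against 119, 111 and 108 CPM, a log2 fold change of -0.65 (SE 0.13, adjusted p = 0.00168). FADS2 was at 213, 197 and 194 CPM against 305, 251 and 272 CPM, a log2 fold change of -0.48 (SE 0.09, adjusted p = 0.000741). FASN was at 791, 780 and 759 CPM against 1028, 969 and 845 CPM, a log2 fold change of -0.29 (SE 0.06, adjusted p = 0.00142). None of these groups overlapped, but FADS2 and FASN were not called without HCRED sample 1 (adjusted p = 0.0575 and 0.134). Over all treatments 18 genes were lower and 0 higher, against 13.5% of all genes called (7.25% higher and 6.23% lower), led by MVD (-0.67), DHCR7 (-0.60), FADS2 (-0.57), SC5D (-0.53) and FASN (-0.46). Of the 3 FGFR1 samples with DMSO, 2 carried NRG1 reads, and without them, with 1 FGFR1 sample left whose spread was taken from HCRED, 0 genes were called by limma-voom (7 at an unadjusted p under 0.05). SC5D, FADS2 and FASN were then at -0.55, -0.39 and -0.26 (adjusted p = 0.233, 0.223 and 0.177). Over all treatments without such samples 15 were called, and without the samples numbered 2 10 were called.

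With NRG1 overexpressed, 3 genes rose and 0 fell with DMSO, against 2.04% of all genes called, 1.1% higher and 0.946% lower (limma-voom; 10 were higher and 0 lower at an unadjusted p under 0.05, and 0 were lower by edgeR or DESeq2). HMGCS1 was at 430, 442 and 356 CPM against 272, 333 and 295 CPM, a log2 fold change of 0.47 (SE 0.08, adjusted p = 1.09e-05). CYP51A1 was at 352, 320 and 365 CPM against 258, 253 and 289 CPM, a log2 fold change of 0.38 (SE 0.09, adjusted p = 0.00343). Neither overlapped its control, and CYP51A1 was not called without HCRED sample 1 (adjusted p = 0.0672). ACLY (0.27, adjusted p = 0.0174) overlapped its control and was not called without HCRED sample 3 (adjusted p = 0.576) or NRG1 sample 3 (adjusted p = 0.272). Over all treatments 8 genes were higher and 1, TM7SF2, lower, against 10.8% of all genes called (5.86% higher and 4.91% lower), with HMGCS1 at 0.50 and CYP51A1 at 0.31, and 5 and 3 were called without the samples numbered 2 and 3. TM7SF2, at -0.40, was not called without the samples numbered 1 (-0.26, adjusted p = 0.417) or 3 (adjusted p = 0.0948).

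With PIK3CA overexpressed, 9 genes rose and 1 fell with DMSO, against 8.6% of all genes called (4.79% higher and 3.81% lower). ELOVL6 was at 156, 139 and 169 CPM against 102, 93.8 and 98.0 CPM, a log2 fold change of 0.63 (SE 0.12, adjusted p = 7.7e-05). IDI1 was at 434, 391 and 403 CPM against 345, 280 and 300 CPM, a log2 fold change of 0.39 (SE 0.08, adjusted p = 0.00029). SCD was at 3119, 3116 and 3054 CPM against 2639, 2695 and 2856 CPM, a log2 fold change of 0.18 (SE 0.03, adjusted p = 6.9e-06). These 3 did not overlap their control and were called in each of the 6 fits that left out 1 sample. FADS2 fell, at 172, 197 and 239 CPM against 305, 251 and 272 CPM, a log2 fold change of -0.47 (adjusted p = 0.000239). ACLY (0.32), ACSS2 (0.47), FDFT1 (0.26), MSMO1 (0.33), HMGCS1 (0.27) and MVD (0.55) were also called higher, and each lost its call without at least 1 sample, most often HCRED sample 1 or 3 (adjusted p from 0.0508 to 0.285 without those). Over all treatments 11 genes were higher and 5 lower, against 27.8% of all genes called (14% higher and 13.8% lower), and MVD, at 0.06, was not called there.

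Whether the response to an exposure differed between lines was tested by the interaction of line and exposure. With CSC 1 of the 34 genes passed (1.39% of all genes called), with BaP 1 (0.368%) and with NNK 3 (0.195%). SCD passed with all 3 exposures, FASN and HMGCS1 with NNK. The GC correction was not fitted to the interactions or to the changes within a line, so these are given as measured only.

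SCD changed with CSC by -0.28 (SE 0.041) in NRG1 cells, from 2926, 2806 and 2846 CPM to 2427, 2268 and 2412 CPM, and by 0.13 (SE 0.044) in FAT1 cells, from 1773, 1810 and 1945 CPM to 2036, 1969 and 1998 CPM (interaction adjusted p = 4.06e-11, limma-voom). In both lines the exposed and DMSO samples did not overlap. With BaP the change of SCD ran from -0.68 (SE 0.056) in FAT1 cells, at 1183, 1082 and 1081 CPM, to -0.24 (SE 0.034) in PIK3CA cells, at 2635, 2648 and 2612 CPM (interaction adjusted p = 2.12e-11). With NNK it ran from -0.00 (SE 0.039) in NRF2 cells to 0.35 (SE 0.042) in FAT1 cells, at 2270, 2321 and 2399 CPM (interaction adjusted p = 0.00224). The CSC interaction was called in 9 of 9 alternative fits and the BaP interaction in 10 of 10, none of which held the GC correction. The NNK interaction was not called by edgeR (adjusted p = 0.485), DESeq2 (adjusted p = 0.0713) or with no filter on low counts (adjusted p = 0.166).

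FASN rose with NNK in all 8 lines, least in CDKN2A cells, by 0.62 (SE 0.073) from 1395, 1642 and 1579 CPM to 2456, 2301 and 2379 CPM, and most in GFP cells, by 1.34 (SE 0.113) from 674, 894 and 767 CPM to 1811, 1940 and 2401 CPM (interaction adjusted p = 5.03e-07). The DMSO samples of these lines did not overlap, and their NNK samples did. The interaction was not called with no filter on low counts (adjusted p = 0.086). HMGCS1 changed with NNK by 0.28 (SE 0.119) in NRF2 cells and by 0.99 (SE 0.105) in FAT1 cells, from 188, 219 and 236 CPM to 361, 442 and 436 CPM (interaction adjusted p = 0.00841), and lost its call without the samples numbered 2 (adjusted p = 0.466) and with no filter (adjusted p = 0.138).

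**Figure D5:**
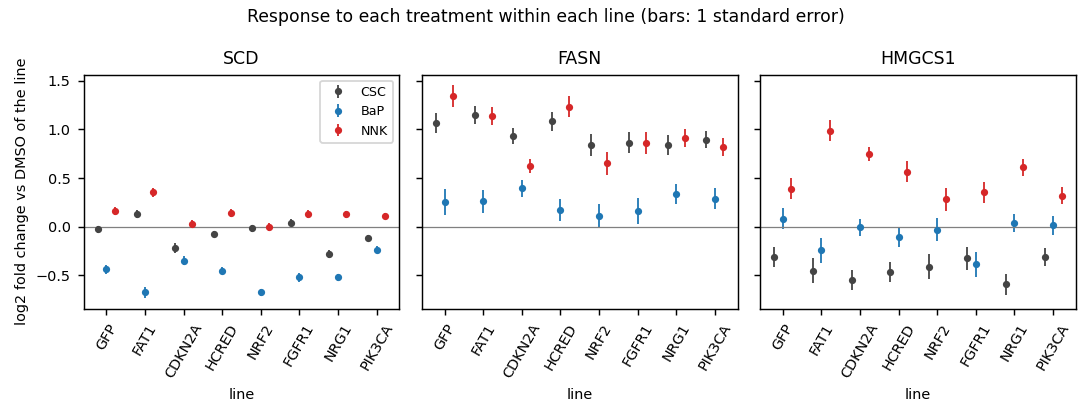
Log2 fold change against DMSO within each of the 8 lines (x axis) of SCD, FASN and HMGCS1 with CSC, BaP and NNK, with bars of 1 SE. SCD fell with BaP in 8 of 8 lines, from -0.68 to -0.24, and FASN rose with NNK in 8 of 8 lines, from 0.62 to 1.34.

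Other lipid genes were counted from 4 further lists, beside 51.7% of all genes called with NNK, 55.6% with CSC and 51.4% with BaP (corrected 17.1%, 33.8% and 26%), and several of the counts lie near these shares. Of 12 other sterol and SREBP pathway genes, 6 rose and 4 fell with NNK (corrected 5 and 1), 5 rose and 4 fell with CSC (corrected 4 and 1), and 4 rose and 4 fell with BaP (corrected 1 and 3). INSIG2 fell by 0.64 on the log2 scale with NNK, with a corrected value of -0.31.

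Of 11 genes of sterol efflux and storage and LXR targets, 5 rose and 0 fell with CSC (limma-voom; corrected 6 and 0), 3 rose and 4 fell with BaP (corrected 1 and 3), and 4 rose and 2 fell with NNK (corrected 3 and 3). ABCA1, which exports cholesterol, was at 7.95, 28.7 and 75.2 CPM with DMSO and at 52.7, 128 and 227 CPM with CSC, a log2 fold change of 2.09 (SE 0.06, adjusted p = 1.17e-50) and 2.22 corrected. ABCG1, another sterol exporter, was higher with CSC by 1.64 and 1.48 corrected. ABCA1 was at 0, 8.33 and 32.5 CPM with BaP, a log2 fold change of -1.64, and at 0.655, 13.3 and 43.0 CPM with NNK, a log2 fold change of -1.09. With DMSO it was higher in FGFR1 cells by 1.44 and in PIK3CA cells by 1.06, and its log2 fold change in CDKN2A cells was -1.32. The FGFR1 samples with DMSO numbered 2 and 3 carried NRG1 reads, and the ABCA1 value without them is not reported here.

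Of 13 tested genes of other fatty acid synthesis and elongation steps, 4 rose and 3 fell with CSC (corrected 8 and 0), 5 rose and 4 fell with BaP (corrected 4 and 0), and 5 rose and 3 fell with NNK (corrected 7 and 0). In the lines, ME1, which makes NADPH, was at 222, 222 and 229 CPM in CDKN2A cells against 81.6, 92.1 and 101 CPM, a log2 fold change of 1.28, and ACSL4, which activates long-chain polyunsaturated fatty acids, was at 84.2, 86.8 and 103 CPM in FAT1 cells against 180, 183 and 185 CPM, a log2 fold change of -1.02. Of 14 tested genes of fatty acid oxidation and lipid droplets, 9 rose and 2 fell with CSC (corrected 8 and 0), 8 rose and 1 fell with BaP (corrected 7 and 0), and 7 rose and 1 fell with NNK (corrected 2 and 0). ANGPTL4, an inhibitor of lipoprotein lipase, was at 0, 2.27 and 7.78 CPM with DMSO and at 1.02, 17.2 and 95.3 CPM with CSC, and its log2 fold change was 3.12 with CSC, 1.42 with BaP and 1.21 with NNK, a gene of low counts in DMSO samples. CPT1A, which admits fatty acids to mitochondria, was at 3.49, 4.91 and 7.18 CPM in NRF2 cells against 17.3, 18.8 and 29.2 CPM in HCRED cells, a log2 fold change of -2.0 (adjusted p = 0.000957).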

How the data were processed

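The authors sequenced SFL libraries and deposited whole-number counts of reads per gene symbol, in 1 file for each of the 95 samples. The submitters' processing notes name FastQC 0.11.5, cutadapt 1.12, STAR 2.5.2b, featureCounts of Subread and hg19, and whether counting used strand is not given in the sources used here. From these counts, limma 3.58.1 (voom, TMM scaling by edgeR 4.0.16, R 4.3.3) was fitted to every gene whose counts averaged above 1 over the samples compared, with two-sided tests and Benjamini-Hochberg adjustment over all genes fitted at 0.05. Exposures were compared with DMSO with genotype as a term, lines with their control with DMSO and over all treatments, and interactions by an F test. Levels are TMM-normalised CPM. The correction regressed log counts on GC content and exon length in each sample (loess, span 0.3) and covered the genes with known values, all 34 members among them.

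The members and gene lists were chosen with earlier results of these data known. HMGCS1 and SCD were described with every exposure, and otherwise the members past 0.05 were named, with priority to the largest changes. Other lists were given by counts with up to 4 genes named, and some of their genes are not reported here. The fits were tested on simulated counts. As alternatives, DESeq2 1.42.0 and the quasi-likelihood test of edgeR were run, as were other size factors, filters of 0 and 10 and prior counts. A replicate block, all samples in 1 fit, the correction, and leaving out samples were also used. The correction and the fit of all samples were not run for the interactions. Samples of at least 500000 reads, and leaving out samples with NRG1 above 50 CPM outside its line, were added after seeing the data. Counted reads ranged from 287446 to 2116383 per sample, which limits the precision of genes of low counts such as HSD17B7 and PMVK.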

Additional observations from a re-analysis of the deposited data

Results flagged for a closer look

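The change of 3 genes with an exposure differed between the 8 lines by the interaction test of limma-voom, which was run without the GC correction. For SCD the adjusted p was 4.06e-11 with CSC, 2.12e-11 with BaP and 0.00224 with NNK. With NNK it was 5.03e-07 for FASN and 0.00841 for HMGCS1. FAT1 cells had the highest change of SCD with CSC (0.13) and NNK (0.35) and the lowest with BaP (-0.68), and these comparisons share the DMSO samples of the line.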

How the results depend on the processing

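Of the counts of called genes, 208 of the alternative values stayed within 1.5 times the reported count and 19 did not, and of the values of the called genes and of the uncalled ones named, 3202 kept direction and call, 276 lost the call, 9 gained it and 45 changed sign. Most sign changes came with the GC content and exon length correction, and values are given with it alone and then with the replicate block. With CSC, MVD was at -0.24 and -0.25, FADS3 at -0.0851 and -0.0905, LSS at -0.083 and -0.08999, IDI1 at 0.0794 and 0.0787, MSMO1 at 0.15 and 0.15, LBR at 0.19 and 0.19, and SCD at 0.014 and 0.0111. With BaP, FASN was at -0.12 and -0.12, MVK at -0.0703 and -0.0715, SC5D at 0.0641 and 0.067, CYP51A1 at 0.12 and 0.12, MSMO1 at 0.19 and 0.19, HMGCS1 at 0.22 and 0.21, STARD4 at 0.00905 and 0.0089, and FADS2 at -0.00708 with the correction alone. With NNK, SREBF1 was at -0.28 and -0.28, STARD4 at 0.22 and 0.22, LBR at 0.0379 and 0.0347, and ELOVL6 at 0.17 and 0.17. The other sign changes were of TM7SF2 in FAT1 cells over all treatments (0.31, and from -0.00934 without the samples numbered 1 to 0.47 without those numbered 2) and of values that had not been called: SREBF1 with BaP (from -0.0553 to 0.00973 with 1 number left out), ACACA with NNK (from -0.0444 to 0.0532), SC5D with NNK (from -0.0411 to 0.0767, and -0.00564 in samples of at least 500000 reads), MVD in PIK3CA cells over all treatments (from -0.0838 to 0.13) and SCD in NRF2 cells over all treatments (-0.00248 without the samples with NRG1 reads). The correction also gave 15 called genes with BaP (26 reported), and 15 with the block. With DMSO, NRF2 had 3 calls by DESeq2 and 3 with all 95 samples in 1 fit (7 reported), NRG1 1 and PIK3CA 4 by DESeq2 (3 and 10 reported), and FGFR1 5 with the replicate block and 0 without the samples with NRG1 reads (limma-voom; 7 at an unadjusted p under 0.05). Without the filter on low counts NRG1 over all treatments had 5 calls (9 reported) and the NNK interaction 0 (limma-voom; 11 at an unadjusted p under 0.05; 3 reported). The cause was not tested.

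Leaving out 1 sample, or the samples of 1 number, gave 3 to 8 calls for NRF2 (3 without NRF2 sample 3), 1 to 4 for FGFR1 (1 without HCRED sample 1), 2 to 5 for NRG1 (5 without NRG1 sample 1) and 6 to 10 for PIK3CA (6 without HCRED sample 3) with DMSO. Over all treatments it gave 10 to 16 for FGFR1 and 3 to 6 for NRG1, and 1 to 2 for the CSC interaction. Over all genes, the correction lowered the calls from 8061 to 4590 with CSC, 7402 to 3502 with BaP and 7438 to 2305 with NNK, and no filter raised them to 10202 with BaP (6447 higher, 3755 lower) and 11531 with NNK (7752 higher, 3779 lower). DESeq2 called 1983 genes in FAT1, 3402 in CDKN2A, 307 in NRF2, 83 in FGFR1, 72 in NRG1 and 460 in PIK3CA cells with DMSO, against 3752, 5408, 1005, 265, 287 and 1228, and the single fit called 175 in NRG1 cells.

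Of samples with the same number, the sources used here give no more in common than the number. The mean correlation of their deviations was between -0.0086 and 0.041, so the replicate block was not used for the reported values. The highest mean was that of NRF2 against HCRED with DMSO, from 0.021 to 0.066 in 3 pairs, against -0.021 for other numbers. Low correlations cannot show that nothing else was shared. The block moved no other count by over 1.5 times.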
